A study of Mus musculus with 8 samples.

Results

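C2C12 myotubes that received both PGC-1α and the iron chelator deferoxamine (DFO) were compared with myotubes that received neither. C2C12 is an established mouse myoblast line whose cells fuse into multinucleated myotubes when serum is lowered. All cultures spent 3 days in 2% dialysed serum, were then infected with an adenovirus, and were harvested after 3 more days. Cells with PGC-1α plus DFO carried GFP-tagged PGC-1α and 100 µM DFO, and GFP cells carried GFP alone with no DFO. Each group had 2 arrays, labelled biological duplicates, so 4 of the 8 arrays in the study enter the comparison. The single-factor groups, PGC-1α alone and GFP plus DFO, supplied the other 4 arrays, which entered the same fit and show where the factors opposed each other. Every group carried an adenovirus and a GFP sequence, and no uninfected culture was analysed here. A gene was represented by the probe set of highest mean log2 intensity among those annotated to its symbol alone, which gave 18193 genes.

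PGC-1α is a transcriptional coactivator that works through nuclear receptors such as ERRα (Esrra) and raises genes of mitochondrial respiration in muscle. DFO binds ferric iron. Iron is needed for iron-sulfur clusters and haem, many of which sit in the respiratory chain, and for the prolyl hydroxylases that mark hypoxia-inducible factors for destruction, so chelation is a common way to switch on the hypoxia response in oxygenated cells. The comparison asks which effect prevails where they oppose.

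Promoters of genes among those in which the factors opposed each other most strongly are shown first, so that the letters can be set beside the values of these genes. The bases are the 250 upstream of the RefSeq start in GRCm38.p6, written 5′ to 3′ on the strand of the gene. Capitals mark matches, on either strand, to AGGTCA (with AAGGTCA, the site read by ERR receptors, which contains it), ACGTG (the core of the hypoxia response element) and CANNTG (the E-box read by myogenic factors). AGGTCA and CANNTG were added to the search after the promoters had been read. In the first pair of genes both factors together left the transcript above GFP, in the next pair below it.
Mtfp1 (chr11:4095432-4095681, minus strand): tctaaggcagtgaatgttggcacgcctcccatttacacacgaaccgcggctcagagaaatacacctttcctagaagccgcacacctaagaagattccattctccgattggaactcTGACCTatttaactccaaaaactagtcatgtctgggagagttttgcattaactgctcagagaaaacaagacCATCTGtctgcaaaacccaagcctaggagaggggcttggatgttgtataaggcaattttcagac
Chchd10 (chr10:75932880-75933129, plus strand): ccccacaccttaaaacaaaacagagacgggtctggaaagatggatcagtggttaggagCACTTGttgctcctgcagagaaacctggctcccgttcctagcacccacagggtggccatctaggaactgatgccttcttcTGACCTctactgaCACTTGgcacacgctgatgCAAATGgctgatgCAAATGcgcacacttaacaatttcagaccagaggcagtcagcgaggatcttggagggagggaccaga
Ckmt2 (chr13:91876886-91877135, minus strand): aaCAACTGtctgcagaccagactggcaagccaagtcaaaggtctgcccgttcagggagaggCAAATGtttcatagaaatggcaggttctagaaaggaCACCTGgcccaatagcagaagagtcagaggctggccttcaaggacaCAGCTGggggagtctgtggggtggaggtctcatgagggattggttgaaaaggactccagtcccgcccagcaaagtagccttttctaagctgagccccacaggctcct
Tnni3 (chr7:4522529-4522778, minus strand): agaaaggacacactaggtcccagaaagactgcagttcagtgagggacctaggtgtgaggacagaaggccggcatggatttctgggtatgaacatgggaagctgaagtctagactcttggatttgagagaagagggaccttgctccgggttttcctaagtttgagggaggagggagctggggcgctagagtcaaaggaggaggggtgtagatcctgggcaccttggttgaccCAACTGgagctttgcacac
Gfm1, a mitochondrial translation factor that stood above GFP, was added after its matches were seen. It was the first named gene with AAGGTCA among those that PGC-1α raised, DFO lowered and both left above GFP. Its AGGTCA match lies within the AAGGTCA match, and it also holds ACGTG and CANNTG. A like search for ACGTG among named genes that PGC-1α lowered, DFO raised and both left above GFP gave no gene.
Gfm1 (chr3:67429865-67430114, plus strand): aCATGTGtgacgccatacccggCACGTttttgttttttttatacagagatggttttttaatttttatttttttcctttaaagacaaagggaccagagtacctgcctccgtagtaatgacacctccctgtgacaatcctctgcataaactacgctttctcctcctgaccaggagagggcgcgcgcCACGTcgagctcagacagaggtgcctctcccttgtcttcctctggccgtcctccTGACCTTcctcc
A promoter was listed for 14452 of the 18193 genes. AGGTCA was present in 16.4% of the 134 such promoters of genes that PGC-1α raised, DFO lowered and both left above GFP, in 27.6% of the 29 left below GFP, and in 12.2% of all promoters. ACGTG was present in 31% of the 42 promoters of genes that PGC-1α lowered, DFO raised and both left above GFP, against 19.8% of all promoters, and in 18.7% and 17.2% of the 134 and the 29. AAGGTCA was in 5.22% of the 134, 6.9% of the 29, 0% of the 42 and 3.46% of all, and CANNTG in 55.2%, 69%, 47.6% and 60.8% of these. AGGTCA was in 11.9% of the 42. These are descriptions of 250 bases and not binding sites.

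Ppargc1a, which encodes PGC-1α, was checked first, since the virus should raise it. Its brightest probe set read 7930 and 7710 intensity units with PGC-1α plus DFO, 7211 and 7036 with PGC-1α, 26.6 and 88.1 with GFP plus DFO, and 28.6 and 37.3 with GFP. The difference of both factors from GFP was 7.90 ± 0.55 on the log2 scale (SE, n = 2 arrays each; limma adjusted p = 0.00045). Its remaining 4 probe sets read lower with both factors than with GFP, by log2 changes of -2.84, -2.59, -1.22 and -1.79. Averaged over its probe sets, the gene did not pass (log2 change -0.11, limma adjusted p = 0.714).

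In all, 5786 genes passed the test with both factors against GFP, which is 31.8% of those tested, with 2451 higher (13.5%) and 3335 lower (18.3%). A pass means an adjusted p under 0.05 in limma (Benjamini-Hochberg, all genes). Further, 7520 genes had an unadjusted p under 0.05, and 1039 higher and 1462 lower genes changed at least 2-fold. Among the 9096 genes above the median level 1900 were higher and 2710 lower, so calls were more common there than over all genes. Most members of each gene list used below lay above that level, except the adipocyte (0 of 4) and osteoblast (0 of 3) markers. The balance rests on the scaling of the arrays: with the arrays matched on poly-A spike-in probe sets, 6130 genes were higher and 1178 lower, and the median change of all genes was 0.56 in place of -0.01 on the log2 scale. Spike-in signal averaged 7.60 and 7.47 (log2) with both factors and 8.14 and 8.05 with GFP. The beta-actin 5′ to 3′ ratio, a sign of RNA integrity, was 0.753 and 0.811 with both factors and 0.921 and 0.898 with GFP. That of Gapdh was 1.1 and 1.09 with both factors against 1.17 and 1.2 with GFP. The part of RNA quality and of loading in the results was not tested.

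PGC-1α and DFO alone moved 431 genes in opposite directions, both against the same GFP arrays, which the outcome with both factors also shares. Of 298 genes raised by PGC-1α and lowered by DFO, 154 (51.7%) stood above GFP with both factors, 33 (11.1%) stood below it and 111 (37.2%) did not pass. Their median change was 0.32 with both factors, 0.88 with PGC-1α and -0.69 with DFO. Of 133 genes lowered by PGC-1α and raised by DFO, 54 (40.6%) stood above GFP, 24 (18%) stood below and 55 (41.4%) did not pass. The outcome mostly had the sign of the larger single change, in 152 of the 187 called genes of the first pattern and 70 of the 78 of the second. On its own PGC-1α passed 9.73% of all genes (4.96% higher, 4.77% lower) and DFO 24.2% (11.8% higher, 12.5% lower). For genes raised by PGC-1α and lowered by DFO more stood above GFP than below in each alternative that gave any calls, but the counts moved. With opposition defined by contrasts without the GFP arrays, 102 stood above and 67 below (60.4% of called genes above, against 82.4%). Without any 1 of the GFP, PGC-1α or GFP plus DFO arrays, 49 to 75 stood above and 3 to 9 below. In each alternative the opposed genes were drawn anew, so these counts are not outcomes of the same 298 or 133 genes. For genes lowered by PGC-1α and raised by DFO the excess above GFP depended on the arrays. It was lost or level without any 1 of the GFP, PGC-1α or GFP plus DFO arrays. Those fits left 1 array in a group and far fewer opposed genes. With the replicate number as a block 53 genes of this pattern were opposed, with 17 above and 17 below.

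**Figure D1:**
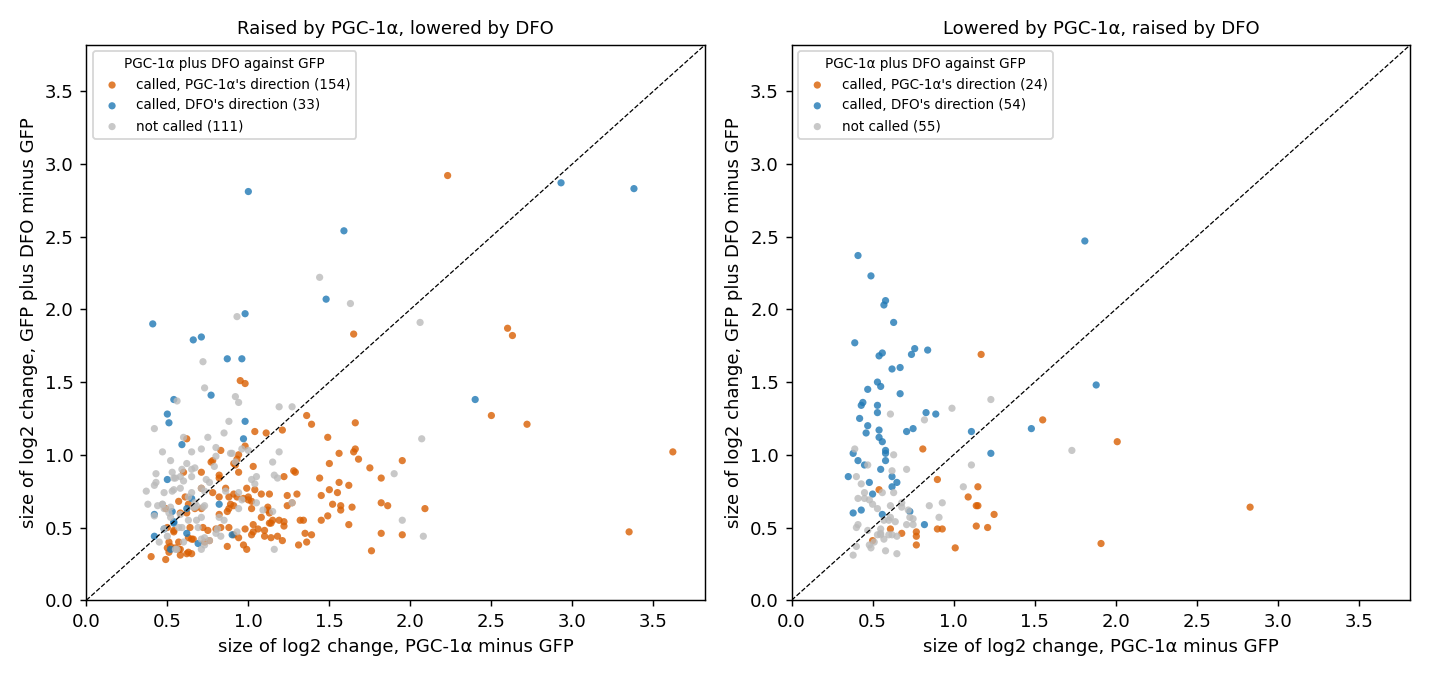
Size of the log2 change of each single factor against GFP (x axis PGC-1α, y axis GFP plus DFO) for the 298 genes raised by PGC-1α and lowered by DFO and the 133 genes moved the other way. The dashed line marks equal sizes, and colour gives the outcome with both factors: 154 of the 298 stood above GFP and 33 below, and 54 of the 133 stood above GFP and 24 below.

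Some genes, several of them mitochondrial, kept the PGC-1α direction. Mtfp1, a protein of mitochondrial inner membrane fission, read 379 and 375 with PGC-1α plus DFO, 975 and 966 with PGC-1α, 29.0 and 25.8 with GFP plus DFO, and 221 and 194 with GFP. The arrays of both factors lay above all GFP arrays and far below those of PGC-1α alone. The change was 0.86 ± 0.11 (log2, limma adjusted p = 0.003). Chchd10, a protein of the mitochondrial intermembrane space, read 4220 and 4187 with both factors and 1327 and 1200 with GFP, a change of 1.74 ± 0.09 (adjusted p = 0.000231). Ldhb, the heart form of lactate dehydrogenase, read 2759 and 2635 with both factors and 714 and 653 with GFP, a change of 1.98 ± 0.12 (adjusted p = 0.000295). In each of these genes the groups did not overlap, as in 62.8% of all genes. Phyh, an iron-dependent peroxisomal hydroxylase, changed by 1.22 and Ndufaf5, a complex I assembly factor, by 1.29. Tmem120b changed by 0.54, and its call was lost when any array except PGC-1α plus DFO replicate 2 was left out.

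Several transcripts of striated muscle that PGC-1α raised fell below GFP with both factors. Ckmt2, the mitochondrial creatine kinase of striated muscle, read 243 and 253 with PGC-1α plus DFO, 4904 and 5045 with PGC-1α, 81.5 and 97.5 with GFP plus DFO, and 683 and 622 with GFP, a change of -1.39 ± 0.12 (limma adjusted p = 0.000844). PGC-1α alone changed it by 2.93 and DFO alone by -2.87. Tnni3, cardiac troponin I, read 39.6 and 43.7 with both factors and 167 and 169 with GFP, a change of -2.01 ± 0.32 (adjusted p = 0.0071). It read 1703 and 1783 with PGC-1α alone, and DFO on top of PGC-1α changed it by -5.39. Abra, an actin-binding protein of striated muscle, changed by -2.23 and Fabp3, the heart fatty acid binding protein, by -0.78. Dhrs11 (-0.69) and Tm6sf1 (-1.36) had the same outcome. The Dhrs11 call was lost under spike-in scaling (-0.12), with the replicate block and with only the groups compared. It was also lost when any array except PGC-1α plus DFO replicate 1 was left out. The Fabp3 call was lost under spike-in scaling (-0.22, limma adjusted p = 0.32) and with the mean of probe sets (-0.22, adjusted p = 0.464). Among genes that did not pass were Car2 (carbonic anhydrase 2, 0.19 ± 0.09, which passed at 0.31 with quantile normalization and at 0.75 under spike-in scaling), Oplah (-0.08 ± 0.14) and Mterf2 (a mitochondrial transcription factor, -0.02 ± 0.10, which was 0.55 under spike-in scaling).

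In the reverse pattern Kdm3a, a histone demethylase that needs iron and is itself a hypoxia target, read 1436 and 1335 with both factors, 414 and 391 with PGC-1α, 2176 and 2144 with GFP plus DFO, and 681 and 661 with GFP. It stood above GFP by 1.05 ± 0.08 (limma adjusted p = 0.000743). Fzd7, a Wnt receptor, was higher by 0.66 (1599 and 1367 with both factors against 944 and 924 with GFP), a call lost without GFP replicate 2 (adjusted p = 0.0509), with only the groups compared (adjusted p = 0.0655) and with the mean of probe sets (0.27, adjusted p = 0.266). Sulf1, Prkca and Anxa8 changed by 1.10, 1.04 and 0.57. Egln3, a prolyl hydroxylase that acts on hypoxia-inducible factors, read 1489 and 1432 with both factors, 711 and 665 with PGC-1α, 3504 and 3292 with GFP plus DFO, and 1364 and 1360 with GFP. Its change was 0.10 ± 0.09 (adjusted p = 0.441), and it passed under spike-in scaling (0.67, adjusted p = 0.0115). Below GFP stood Gsr, glutathione reductase, at -0.34 (331 and 317 with both factors against 421 and 397 with GFP, adjusted p = 0.0286), a call lost without 7 of the 8 arrays, and Ptger4, a prostaglandin E2 receptor, at -0.55 (186 and 194 with both factors against 300.3 and 258 with GFP). Under spike-in scaling the changes of Gsr and Ptger4 were 0.23 and 0.02, so their direction turned, and with the mean of probe sets both calls were lost (adjusted p = 0.327 and 0.206).

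**Figure D2:**
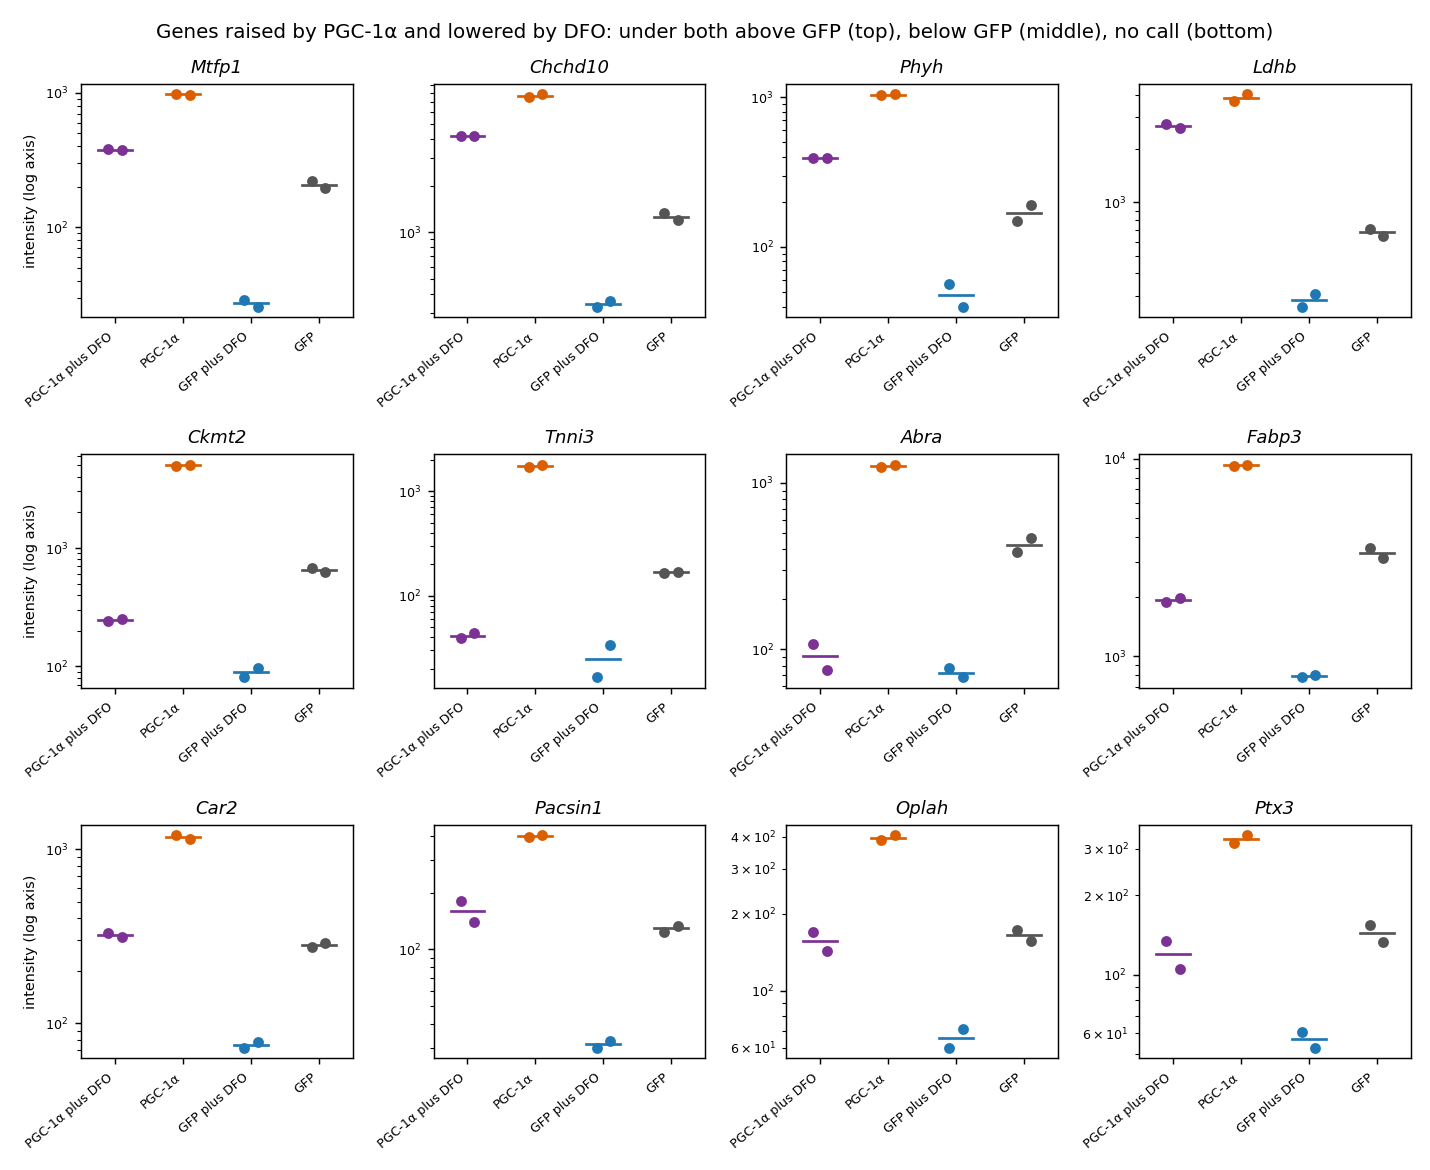
Deposited intensity (log axis) of 12 genes raised by PGC-1α and lowered by DFO, with 1 point for each array and a line at the arithmetic mean of 2 arrays, for PGC-1α plus DFO, PGC-1α, GFP plus DFO and GFP. The rows hold genes that stood above GFP with both factors, below it, and not called. Mtfp1 lay above GFP with both factors (379 and 375 against 221 and 194 with GFP), Ckmt2 below it (243 and 253 against 683 and 622 with GFP).

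In the lists of oxidative metabolism more genes were higher than lower with both factors, except in mitochondrial gene expression. Of 33 complex I subunits, 16 were higher and 2 lower than GFP, with a median change of 0.31 against 0.66 with PGC-1α and -0.70 with DFO. The median over all genes was -0.01. With both factors 18 of the 33 were lower than with PGC-1α alone, against 14.2% of all genes. Of the 25 complex I subunits that the factors opposed, all raised by PGC-1α and lowered by DFO, 14 stood above GFP, 1 below and 10 did not pass. Over all 298 genes of that pattern, 51.7% stood above GFP, 11.1% below and 37.2% did not pass. Among 14 genes for cytochrome c and the subunits of complexes II and III, 11 were higher and none lower, and the median was 0.59. Sdhb, the iron-sulfur subunit of complex II, read 5524 and 5347 with both factors and 2727 and 2987 with GFP, a change of 0.93 ± 0.09 (limma adjusted p = 0.00129). Ndufs1, which holds iron-sulfur clusters of complex I, did not pass at 0.19 ± 0.08 (adjusted p = 0.129; 2183 and 2135 with both factors against 1925 and 1851 with GFP), but passed with quantile normalization (0.29, adjusted p = 0.03) and under spike-in scaling (0.76, adjusted p = 0.00847). Cycs, cytochrome c, changed by 0.59 (adjusted p = 0.0149), but its call was lost without GFP replicate 1 (adjusted p = 0.0746). The other Cycs probe sets changed by 1.08, 1.47 and 0.16, of which the last was the dimmest (mean of 172 with both factors). Cs, citrate synthase, read 7135 and 6814 with both factors and 3250 and 3259 with GFP, a change of 1.10 ± 0.08. Idh3a, a subunit of isocitrate dehydrogenase, changed by 1.60. In the TCA cycle list of 18, 11 were higher and 2 lower, with 1 lower whichever array was left out. ATP synthase had 7 of 15 higher and 2 lower, with 3 or 4 higher when any array but PGC-1α plus DFO replicate 2 was left out. In the mitochondrial ribosome 28 of 76 were higher and 13 lower, and in mitochondrial gene expression 4 of 24 were higher and 4 lower (1 or 2 lower whichever array was left out). Of 18 iron-sulfur and haem enzymes of mitochondria 9 were higher and 2 lower. Over all genes 13.5% were higher and 18.3% lower. The 13 lower of 76 ribosomal genes and both counts of mitochondrial gene expression were near these shares. Without GFP replicate 1, the count of lower complex I subunits was 1 in place of 2. Under spike-in scaling, which moved the median of all genes to 0.56, 26 complex I subunits were higher and 0 lower (median 0.88), 54 mitochondrial ribosomal proteins were higher and 0 lower (median 0.74 in place of 0.17), and 11 genes of mitochondrial gene expression were higher and 0 lower (median 0.54 in place of -0.02). The higher and lower counts were then 12 and 0 for ATP synthase, 16 and 0 for the TCA cycle and 15 and 2 for the iron-sulfur and haem enzymes. The lists were drawn up from textbook knowledge with results of these data known.

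Complex IV had 7 of 13 subunits higher and 2 lower, against 13.5% and 18.3% of all genes, and its heart and muscle isoforms split. Cox7a1 read 2492 and 2257 with both factors and 243 and 243 with GFP, and rose by 3.28 ± 0.09. Cox8b and Cox6a2 were lower, with log2 changes of -1.81 and -1.62 (limma adjusted p = 0.000344 and 0.000199). Fatty acid oxidation was mixed, with 9 of 21 higher and 6 lower (13 and 3 under spike-in scaling). Cpt1a, a carnitine palmitoyltransferase, changed by 1.80 and Etfdh, which passes electrons to ubiquinone, by 1.33. Cd36, a fatty acid transporter, read 34.2 and 64.8 with both factors and 794 and 797 with GFP, a change of -4.08 ± 0.30 (adjusted p = 0.000545).

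PGC-1α targets included Esrra, its partner receptor, which read 1197 and 1191 with PGC-1α plus DFO, 1004 and 1144 with PGC-1α, 180 and 184 with GFP plus DFO, and 240 and 225 with GFP. It rose by 2.36 ± 0.10 (limma adjusted p = 0.000113). Pdk4, a kinase that restrains pyruvate dehydrogenase, rose by 2.87 ± 0.10 and each factor alone raised it (2.28 and 0.96). Of 25 partners and targets 12 were higher and 3 lower, against 13.5% and 18.3% of all genes. Ppargc1b, the sister coactivator, was one of the lower genes at -5.59. Its arrays with both factors read 11.3 and 11.6, below the 25th percentile of the array. With a floor at the 25th percentile its change was -4.78.

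Of 21 genes of iron handling 7 were higher and 4 lower, against 13.5% and 18.3% of all genes, so that the lower count was near the share of all genes. Tfrc, the transferrin receptor, read 8151 and 7695 with PGC-1α plus DFO, 7693 and 8000 with PGC-1α, 4557 and 4646 with GFP plus DFO, and 3914 and 4334 with GFP, and rose by 0.94 ± 0.09 (limma adjusted p = 0.00132). Slc40a1, the iron exporter ferroportin, read 77.8 and 70.2 with both factors and 569 and 594 with GFP, and fell by 2.97 on the log2 scale. Fth1, the ferritin heavy chain, changed by -0.37 (adjusted p = 0.0253), which was 0.19 under spike-in scaling and was lost when any array but PGC-1α plus DFO replicate 2 was left out. Aco1, the iron-sensing cytosolic aconitase, did not pass at 0.19 ± 0.13 (adjusted p = 0.328), but passed without PGC-1α plus DFO replicate 2 (0.37, adjusted p = 0.045), without _x_at and _s_at probe sets (0.54, adjusted p = 0.0432) and under spike-in scaling (0.76, adjusted p = 0.0121). The median of the iron list, 0.19, was -0.01 with the mean of probe sets, and under spike-in scaling 10 were higher and 2 lower. In iron-sulfur cluster assembly 8 of 18 were higher and 3 lower (15 and 1 under spike-in scaling). Fdx1, a ferredoxin, read 5627 and 5428 with both factors, 3895 and 3953 with PGC-1α, 284 and 273 with GFP plus DFO, and 403 and 369 with GFP, a change of 3.84 ± 0.09 (adjusted p = 3.77e-05). Iscu, the assembly scaffold, changed by 0.51 and Nfu1, a cluster carrier, by -1.42. Hmox1, which breaks down haem, rose by 1.73, and Fech, which inserts iron in the last step of haem synthesis, fell by 1.10.

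The targets of hypoxia-inducible factors rose. Of 25 genes 22 were higher and 1 lower, where 13.5% of all genes were higher and 18.3% lower. Their median was 1.85, against 0.09 with PGC-1α and 1.97 with DFO. Car9, a carbonic anhydrase, read 1057 and 1004 with both factors and 49.2 and 37.0 with GFP, a change of 4.59 ± 0.31 (limma adjusted p = 0.000418). Ndrg1 rose by 3.84. Vegfa, the endothelial growth factor, read 2763 and 2691 with PGC-1α plus DFO, 1615 and 1619 with PGC-1α, 2431 and 2264 with GFP plus DFO, and 932 and 1019 with GFP, a rise of 1.48 ± 0.09. Ldha rose by 0.44, and its call was lost without GFP replicate 1 or 2 (adjusted p = 0.0523 and 0.0594). Hif1a itself rose by 0.58. Its other probe sets changed by 1.00, 0.17 and 0.34, of which only the first passed. Epas1 did not pass at 0.39 (adjusted p = 0.303), but passed under spike-in scaling (0.96, adjusted p = 0.0488). In glycolysis 10 of 14 were higher, among them Aldoc (3.21) and Hk1 (2.27). The 3 lower genes were near the share of all genes and included the muscle forms Pgam2 and Eno3 (-5.76 and -3.08). Of 17 genes of cholesterol synthesis 15 were higher and 1 lower (median 1.21), with Sqle at 5264 and 5103 with both factors against 1331 and 1283 with GFP, a change of 1.99.

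**Figure D3:**
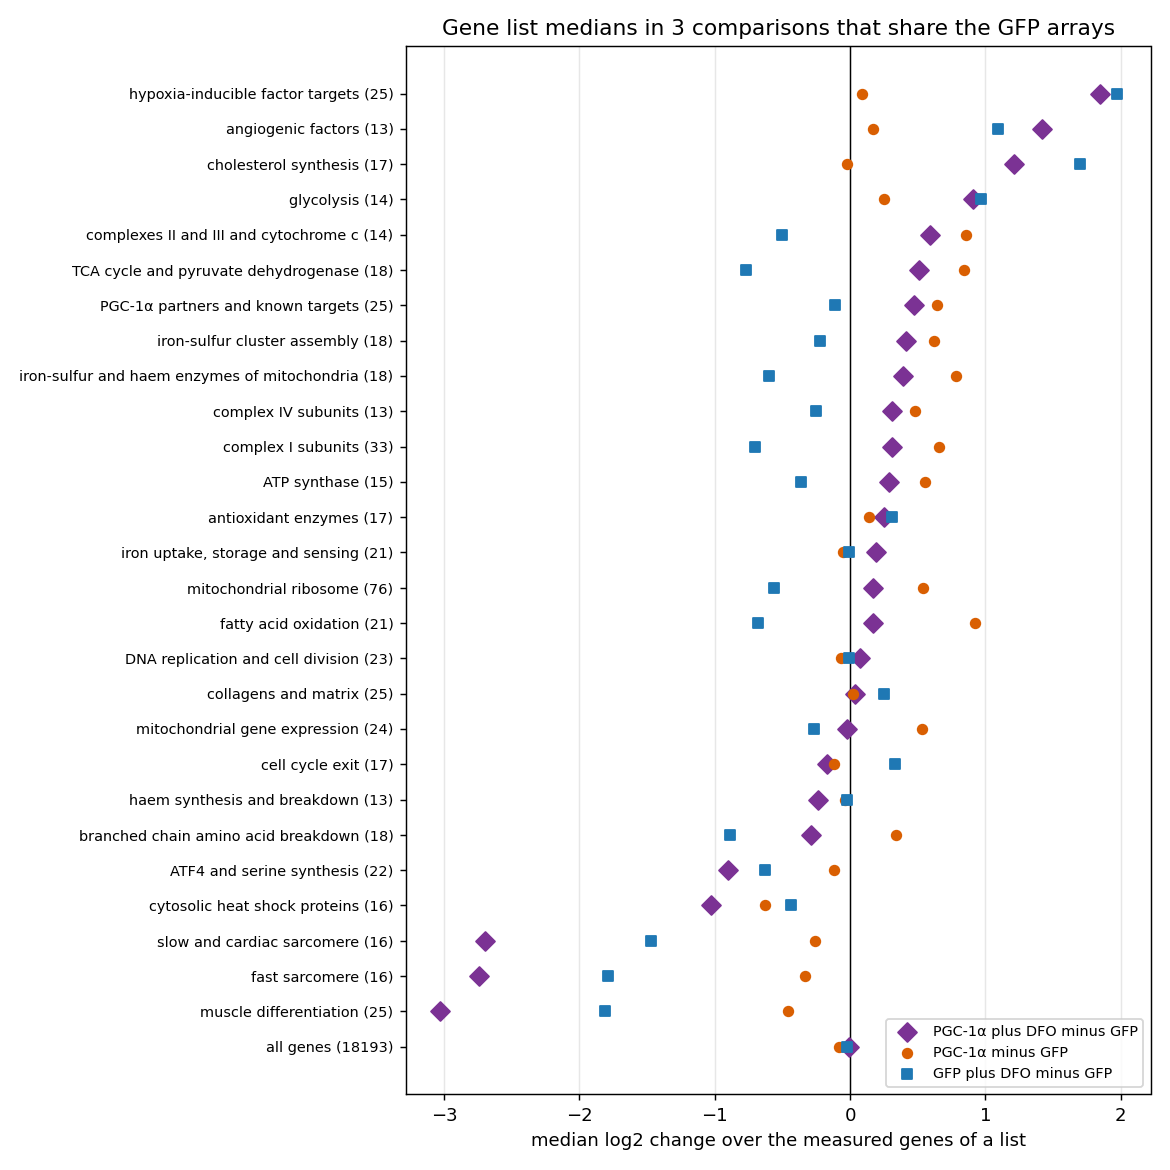
Median log2 change against GFP of the measured members of each gene list, for PGC-1α plus DFO, PGC-1α and GFP plus DFO. The hypoxia targets had medians of 1.85, 0.09 and 1.97, and the complex I subunits 0.31, 0.66 and -0.70.

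The same genes can be read against each factor alone, with PGC-1α plus DFO shared by these contrasts. Adding PGC-1α to DFO changed 18.9% of all genes (6.93% higher, 12% lower), and adding DFO to PGC-1α changed 25.6% (11.4% higher, 14.2% lower). In the respiratory lists the first addition raised 28 of 33 complex I subunits, all 14 of cytochrome c and complexes II and III, 11 of 13 in complex IV, 11 of 15 in ATP synthase and 16 of 18 in the TCA cycle, and lowered none of them. It raised 48 of 76 mitochondrial ribosomal proteins. The second addition lowered 18, 7, 3, 8 and 11 of those first 5 lists and 43 of the ribosomal list. Fdx1 was higher in both readings, by 4.31 and 0.49 (limma adjusted p = 0.000196 and 0.0129). Cs was higher than with DFO alone by 1.83 (adjusted p = 0.000756) and did not pass against PGC-1α alone at -0.20 (adjusted p = 0.128). Mrpl47, a mitochondrial ribosomal protein, read 2165 and 1988 with both factors, 2376 and 2229 with PGC-1α, 370 and 332 with GFP plus DFO, and 497 and 592 with GFP.

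For the targets of hypoxia-inducible factors the readings lay the other way. Adding PGC-1α to DFO raised 1 of 25 and lowered 4, while adding DFO to PGC-1α raised 21 and lowered 1. In cholesterol synthesis the second addition raised 13 of 17 and lowered none, and the first raised none and lowered 4. Car9 was higher than with PGC-1α alone by 5.39 (limma adjusted p = 0.000406), and against DFO alone it did not pass at -0.29 (adjusted p = 0.591). Vegfa was higher than with PGC-1α alone by 0.75 (adjusted p = 0.00364) and did not pass against DFO alone at 0.22 (adjusted p = 0.169). Muscle differentiation genes were lower in both readings, 17 of 25 against DFO alone (1 higher) and 21 of 25 against PGC-1α alone (0 higher). Chrng, the fetal acetylcholine receptor subunit, read 125 and 112 with both factors, 2521 and 2569 with PGC-1α, 711 and 707 with GFP plus DFO, and 4391 and 4106 with GFP. Myl2, the slow regulatory light chain of myosin, read 173 and 196 with both factors, 2518 and 2687 with PGC-1α, 53.3 and 57.9 with GFP plus DFO, and 2346 and 2444 with GFP, and it stood above DFO alone (1.73, adjusted p = 0.00117) and below GFP (-3.70).

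The muscle programme fell. All 10 myotube markers were lower with both factors, where 18.3% of all genes were lower and 13.5% higher. Their summed intensity was 16650 and 15900 with PGC-1α plus DFO against 74230 and 71110 with GFP. In a bulk sample, fewer myotubes and less RNA per myotube cannot be told apart. Of 25 muscle differentiation genes 21 were lower and none higher, with a median of -3.03 against -0.46 with PGC-1α and -1.81 with DFO. Myog, a driver of fusion, read 63.1 and 71.1 with both factors, 5296 and 5245 with PGC-1α, 174 and 141 with GFP plus DFO, and 5223 and 5330 with GFP, and fell by 6.30 on the log2 scale (limma adjusted p = 3.72e-05). Of the fast and the slow or cardiac sarcomere lists 14 of 16 and 13 of 16 were lower and none higher (in the slow list 1 was higher without GFP replicate 1 or 2, and 2 under spike-in scaling). Ldb3, a Z-disc protein, read 23.5 and 9.84 with both factors and 2016 and 1882 with GFP. Pdlim3, also of the Z-disc, read 48.2 and 49.3 with both factors and 4802 and 4884 with GFP. Their changes were -7.00 ± 0.41 and -6.63 ± 0.08. The dim values limit the first, which was -6.52 with the floor. Myoblast or reserve cell markers split, with 4 of 10 higher and 4 lower, and their sums were 4053 and 3636 with both factors against 4115 and 3922 with GFP. Of 5 proliferation markers none was higher and 1 lower, which is near the share of all genes that were lower. Only 3 of these 5 lay above the median level. Of 4 adipocyte markers 1 was higher, Retn (0.55), a call lost without GFP replicate 2 or PGC-1α plus DFO replicate 2 (limma adjusted p = 0.0791 and 0.0713). Of 3 osteoblast markers Ibsp (-1.63) and Sp7 (-0.47) were lower. The Ibsp call was lost with the mean of probe sets (adjusted p = 0.307). That of Sp7 was lost without 7 of the 8 arrays and with the replicate block (adjusted p = 0.0752), and its change was 0.10 under spike-in scaling. The part of changed cell state in the other results was not tested.

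Other groups with many members lower were the cytosolic heat shock proteins (13 of 16 lower, 1 higher) and the ATF4 and serine synthesis genes (15 of 22 lower, 4 higher, or 2 higher whichever array was left out), against 18.3% lower and 13.5% higher over all genes. Under spike-in scaling 8 heat shock and 7 ATF4 and serine genes were lower, with medians of -0.46 and -0.34 in place of -1.03 and -0.90. Phgdh, the first enzyme of serine synthesis, read 696 and 711 with both factors and 5279 and 5162 with GFP, a change of -2.89 ± 0.09 (limma adjusted p = 5.51e-05). Branched chain amino acid breakdown had 2 of 18 higher and 7 lower (1 higher without GFP replicate 1 or 2), and its median of -0.29 was 0.28 under spike-in scaling. Collagen and matrix genes had 9 of 25 higher and 8 lower, with Lox, which cross-links collagen, at 2.89 and Loxl1 at -2.77. In the antioxidant list Sod2, the mitochondrial superoxide dismutase, rose by 1.88, with 6 of 17 members higher and 2 lower (0 or 1 lower whichever array was left out). Haem synthesis and breakdown had 3 of 13 higher and 6 lower (3 lower without GFP replicate 1), and its median of -0.24 was 0.33 under spike-in scaling. DNA replication had 3 of 23 higher and 5 lower (3 without GFP replicate 1), near the shares of all genes. Cell cycle exit had 4 of 17 higher and 5 lower (2 or 3 without any array except PGC-1α plus DFO replicate 1), and its median of -0.17 was 0.40 under spike-in scaling. Cdkn1a, the cyclin-dependent kinase inhibitor p21, did not pass at -0.17 ± 0.08 (adjusted p = 0.164). Of 13 angiogenic factors 7 were higher and 1 lower (2 without PGC-1α plus DFO replicate 1), with Apln at 4.57 and Angpt1 at -3.14. Under spike-in scaling the higher and lower counts were 8 and 4 for branched chain amino acid breakdown, 12 and 4 for collagen and matrix, 12 and 0 for antioxidant enzymes, 5 and 3 for haem, 7 and 1 for DNA replication and 7 and 0 for cell cycle exit.

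Among the largest rises was a chemokine that neither factor alone moved by as much. Cxcl1, a neutrophil chemokine, read 7552 and 7757 with PGC-1α plus DFO, 290 and 275 with PGC-1α, 298 and 311 with GFP plus DFO, and 242 and 238 with GFP, a change of 4.99 ± 0.08 (limma adjusted p = 3.72e-05). Its interaction was 4.42 (adjusted p = 0.00186), and over all genes 101 interactions passed (0.555%; 0.231% higher and 0.324% lower). Pgf, placental growth factor, read 2978 and 2621 with both factors, 50.1 and 57.4 with PGC-1α, 1259 and 1271 with GFP plus DFO, and 30.9 and 49.99 with GFP. Upp1, uridine phosphorylase, read 2276 and 2308 with both factors, 907 and 882 with PGC-1α, 195 and 213 with GFP plus DFO, and 49.0 and 50.2 with GFP. Sprr2h, Ereg (an EGF receptor ligand), Fosl1 (an AP-1 subunit), Nefm and Nefl (neurofilament chains), Nppb (a natriuretic peptide), Ier3 and Vwa1 rose by 6.77, 5.41, 5.23, 5.23, 4.78, 5.18, 4.80 and 4.70. Among called genes brighter than the median gene and without overlap between the groups, clone names passed over, the largest falls after Ldb3 and Pdlim3 were Unc45b (a myosin chaperone, -6.56), Myog (-6.30), C1qtnf3 (-6.17), Tceal7 (-6.07), Fgf21 (-5.87), Mybph (-5.77), Pgam2 (-5.76), Fst (follistatin, -5.63), Hspb3 (-5.60) and Ogn (-5.48). Unc45b read 16.6 and 10.6 with both factors, below the 25th percentile of each array, as did 1 array each of Fst and Hspb3. With the floor at that percentile their changes were -5.95, -5.20 and -5.36, and Unc45b came after Tceal7.

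**Figure D4:**
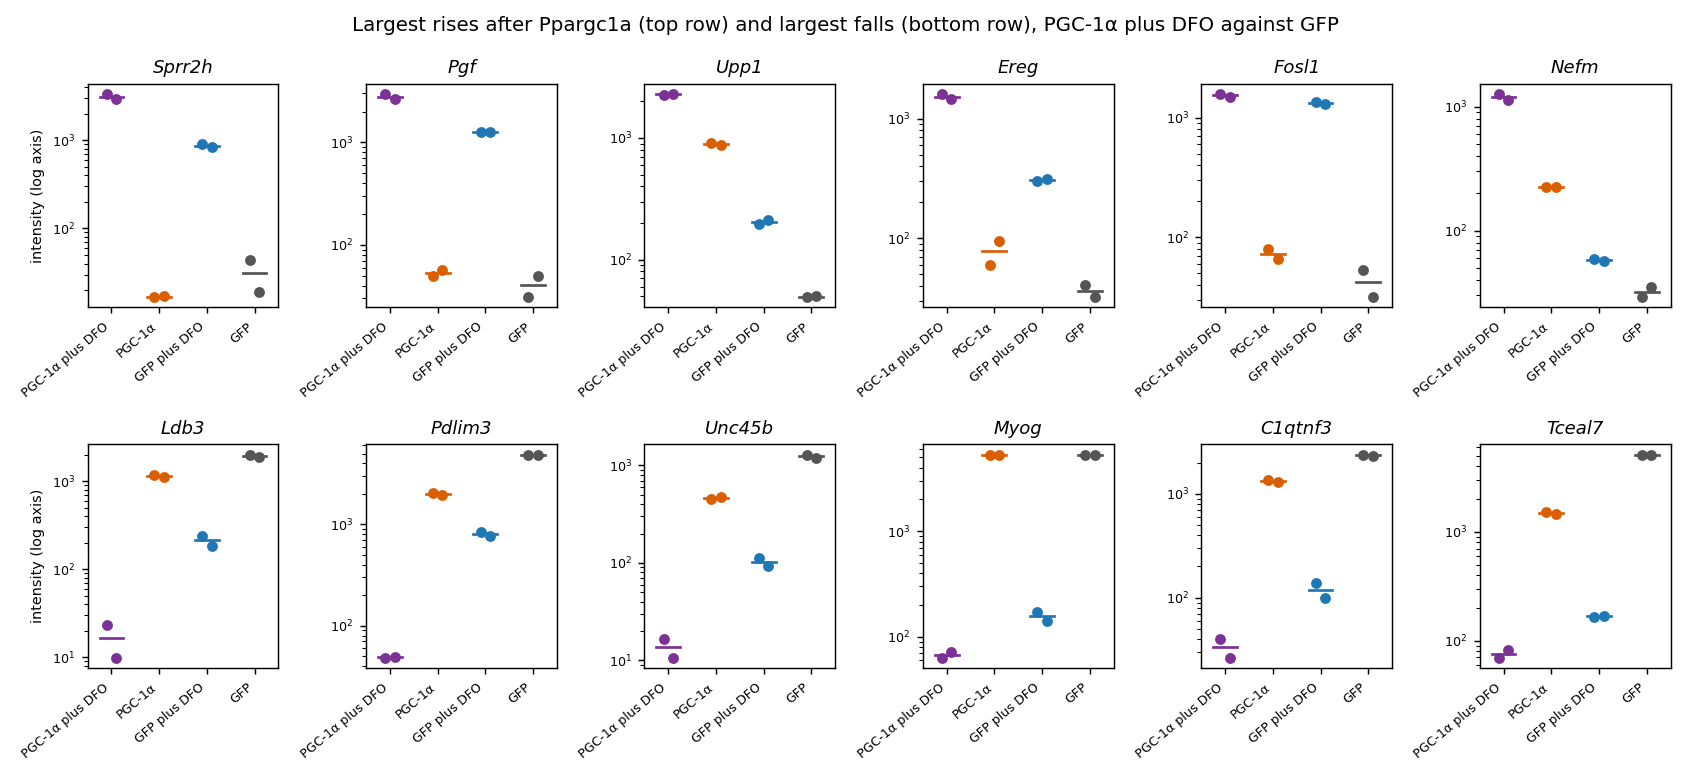
Deposited intensity (log axis) of 6 genes with the largest rises after Ppargc1a (top row) and 6 with the largest falls (bottom row) among called genes above the median level without overlap, 1 point for each array and a line at the arithmetic mean of 2 arrays. Sprr2h read 3368 and 2907 with PGC-1α plus DFO against 43.4 and 19.1 with GFP, and Pdlim3 read 48.2 and 49.3 with PGC-1α plus DFO against 4802 and 4884 with GFP.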

How the data were processed

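Expression was measured on 8 Affymetrix Mouse 430 2.0 arrays, 2 in each of 4 groups taken from the labels. The deposited table holds linear probe-set intensity values. The probe summary, background correction and array scaling used by the authors are not given in the sources used here. The arrays had similar medians (59.4 to 62.8), and between 968 and 1082 entries an array equalled 1. The number of arrays limits precision. GEO's platform annotation gave 1 symbol to 34945 of 45101 probe sets, several to 932 and none to 9160, while 64 were controls. Over 1 probe set was available for 9010 genes. The deposited intensity was turned into log2 as it stood, without pseudocount or filter.

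All arrays entered 1 fit of group means in limma 3.58.1 (R 4.3.3), which left 4 residual degrees of freedom and added 1.3 from the prior. Each of 6 contrasts was tested over 18193 genes with two-sided p-values, adjusted by Benjamini-Hochberg and read at 0.05. An exact permutation of 2 against 2 arrays cannot give less than 0.333, so the p-values rest on the pooled spread of duplicates. The fit was tested on simulated data. A gene counts as opposed where PGC-1α and DFO each passed against GFP with opposite signs.

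The members, the 27 gene lists and the named genes were chosen with earlier results of these data known. Named were the 12 largest rises and 12 largest falls of bright genes without overlap, up to 4 called members of each list, 6 opposed genes for each pattern and outcome, and a fixed set. Alternatives covered normalization, probe-set choice, dim genes, variance model, arrays in the fit, a 2-fold limit, a replicate block, opposition without GFP arrays, and each array left out. Promoters came from RefSeq (GRCm38.p6). Figures were drawn with matplotlib 3.10.9 (Python 3.11.15).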

Additional observations from a re-analysis of the deposited data

Results flagged for a closer look

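In 11 of the 181 named genes the effect of one factor differed with the other present, by limma's interaction test, against 0.555% of all genes. Many of the named genes were chosen for large or opposed changes, so these shares are not comparable. Chrng, Ckmt2, Ogn, Pdlim3, Postn and Suox had interactions of -1.84, -1.46, -2.54, -2.77, -1.68 and -1.34 on the log2 scale. Cox6a2, Cxcl1, Mtfp1, Myl2 and Nefm had 1.26, 4.42, 1.56, 1.61 and 1.56. Adjusted p-values were 0.0251, 0.05, 0.0287, 0.00937, 0.0287 and 0.0392 for the first group and 0.0373, 0.00186, 0.0398, 0.0366 and 0.0496 for the second. For Suox, sulfite oxidase, intensities were 293 and 267 with PGC-1α plus DFO, 697 and 665 with PGC-1α, 832 and 788 with GFP plus DFO, and 793 and 762 with GFP.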

How the results depend on the processing

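Counts moved with the setting as follows, all against GFP. With spike-in scaling 6130 genes were higher and 1178 lower, with only the groups compared 1281 and 1765, at 2-fold or more 1039 and 1462, and leaving out 1 array gave 1817 to 2183 higher and 2297 to 3360 lower. Genes raised by PGC-1α and lowered by DFO that stood above and below GFP numbered 123 and 7 (spike-in scaling), 79 and 13 (mean of probe sets), 224 and 105 (genes above the median), 174 and 51 (floor), 229 and 90 (trend and robust), 9 and 3 (2-fold), 102 and 67 (opposition defined without GFP arrays), and 49 to 145 and 3 to 39 without 1 array. Genes moved the other way that stood below and above GFP numbered 0 and 7, 7 and 13, 88 and 223, 39 and 89, 82 and 205, 1 and 2, and 17 and 113 in these settings, and 4 to 34 and 1 to 71 without 1 array. In the 4-array fits all 4 opposed counts were 0. The labels do not say that replicate numbers pair arrays. Deviations of same-numbered arrays correlated at -0.0204 between PGC-1α plus DFO and GFP, at -0.11 and 0.221 between PGC-1α plus DFO and PGC-1α or GFP plus DFO, and at 0.039 and -0.0421 between these and GFP. The replicate block gave 2236 higher and 3030 lower genes, opposed counts of 108 and 15, and 17 and 17. Directions turned for Ppargc1a (-0.11) and the haem (0.16) and iron (-0.01) lists with the mean of probe sets, for Cdkn2b (-0.08) with the floor, and for Ager (0.25) without _x_at and _s_at probe sets. Under spike-in scaling they turned for the haem (0.33), branched chain amino acid (0.28) and cell cycle exit (0.40) lists and for Atpif1 (0.02), Atp5g2 (0.04), Sp7 (0.10), Mterf2 (0.55), Stmn2 (0.04), Ptger4 (0.02), Gsr (0.23) and Fth1 (0.19). With only the groups compared, 24 of the 181 named genes lost their calls. Among them were Tmem120b, Dhrs11, Ptger4, Gsr, Fzd7, Anxa8, Cycs, Fth1, Ldha, Iscu and Hif1a (limma adjusted p of 0.0573 to 0.153). The causes were not tested. Dim genes had a median SD of 0.29 (log2) with both factors, against 0.289 with GFP. Genes above the median level had 0.112 with both factors, 0.0751 with GFP, 0.0584 with PGC-1α and 0.0556 with GFP plus DFO. The fit pooled the spread over these groups, so its SE does not show the wider spread with both factors.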
